A study of Rattus norvegicus with 12 samples.

Results

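Messenger RNA of the metabotropic glutamate receptors was described in the hippocampus of 12 blast-exposed rats, of which 6 received boldine (blast-boldine) and 6 did not (blast-control). The receptors are the 6 genes Grm2, Grm3, Grm4, Grm5, Grm7 and Grm8, all 6 of which had a row among the 17494 genes counted, and Grm6, of the same family, is given only beside them. The 6 were selected by name from a list drawn up with measured values of the boldine contrast in these same libraries known. Their values in that contrast are therefore given as a description, and nothing is read from their p-values in it. All 12 animals were wild type male Long Evans rats, exposed to blast overpressure in a shock tube at 10 weeks of age on 3 consecutive days. Blast-boldine rats ate chow with 500 mg/kg boldine, an alkaloid of the boldo tree that blocks connexin hemichannels, from the second week after blast until tissue was taken 29 weeks after blast. Blast-control rats ate the same chow without boldine. None of the 12 libraries came from a rat without blast, so no value shows what blast itself did to these genes. Tissue is labelled brain, the study's methods specify hippocampus, and each rat gave 1 library.

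Metabotropic glutamate receptors are G protein-coupled receptors that sense glutamate and slow or tune synaptic transmission, in contrast to the glutamate-gated ion channels. Group I receptors (here Grm5) sit mainly on the postsynaptic side and act through Gq, phospholipase C and release of calcium from internal stores. Group II (Grm2, Grm3) and group III receptors (Grm4, Grm6, Grm7, Grm8) couple to Gi and Go, lower cyclic AMP, and mostly act as brakes on transmitter release from presynaptic terminals. In the hippocampus mGluR2 is known from dentate granule cells and their mossy fibers, mGluR3 from astrocytes as well as neurons, mGluR5 from the dendrites of principal cells, and mGluR7 from terminals that contact interneurons. The study measured mGluR2 and mGluR3 protein, and the comparison of boldine with control chow addresses the matching transcripts.

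The gene models were those of mRatBN7.2 as the deposited counts give them, and reads were counted over exons only. Grm2, at chr8:107280099-107293146 on the minus strand, was the most compact, with 6 separate exon blocks and 4580 counted bases. Grm3 lay at chr4:24365115-24609804 on the plus strand with 6 blocks and 3384 bases. Grm4 lay at chr20:5484172-5572821 on the minus strand with 11 blocks and 4306 bases. Grm5 lay at chr1:141321129-141880970 on the plus strand with 9 blocks and 3919 bases. Grm7 (chr4:143730862-144612344, plus strand, 10 blocks, 3417 bases) and Grm8 (chr4:55806289-56722044, minus strand, 10 blocks, 2793 bases) spanned 881 and 916 kb, almost all of it intron.

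Library totals lay between 10148474 and 40850106 counts, with 13788 to 14688 genes detected, except for blast-control rat 6 with 74008 counts and 7153 genes. In rat 6 a single count equals 15.8 CPM (counts scaled to a library of 1000000 counts), and 3 counts, taken as the smallest detected value, equal 47.5 CPM, against at most 0.307 CPM in any other rat. Rat 6 held 1 count of Grm2 and no count of Grm4 or Grm8, and the exact 95% Poisson upper limits of these counts, 88.3 CPM for Grm2 and 58.4 CPM for Grm4 and Grm8, lie above every level of these 3 genes in the other rats. The fold changes of the receptors are given with and without it. Ratios, ranges of marker and signalling genes and levels per length leave it out, and each mean states its n. The library suffixes also fall into 2 sets of 6 libraries, set A (rats 1, 7, 9, 20, 32 and 35) and set B (rats 4, 5, 6, 12, 17 and 19). The labels do not name these sets. They were inferred here: with each suffix once per set, and rat numbers assumed to rise with the suffix within a set, 4 assignments are possible. The assignment used explained the most (94.8%) of principal component 1 in the other 11 libraries. Rat 6 was placed by these rules and not by its own values. Each set holds 3 rats of each treatment. Markers of dentate granule cells (summed 342 to 482 CPM), CA1 (666 to 1141 CPM) and CA3 (221 to 522 CPM) were present in each of the 11 libraries, with Tdo2, Lct and Iyd at 0 in at least 1 of them. Cerebellar markers summed to 2.68 to 17.6 CPM, and choroid plexus markers ranged from 9.77 to 1428 CPM with high and low rats in both groups.

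The order of the receptors was set on CPM per kilobase of counted exon over the 11 rats other than rat 6. Grm5 stood highest at 83.7 ± 7.2 (SD, n = 11), followed by Grm3 at 73.3 ± 11.9, and their ranges overlapped, with Grm5 above Grm3 in 8 of 11 rats. Grm7 came next at 31.9 ± 2.45, below Grm3 in every one of the 11 rats and without overlap of the ranges. Grm2 (8.92 ± 2.73), Grm8 (6.84 ± 2.47) and Grm4 (3.45 ± 1.13) formed the low end, again without overlap with Grm7. Neighbours at this low end overlapped: Grm2 exceeded Grm8 in 9 of 11 rats, and Grm8 exceeded Grm4 in all 11 although their ranges across rats met. Grm5 and Grm3 together made up most of the signal of the 6 receptors, at 40.3% ± 3.06 and 35.1% ± 3.69 of their sum per length, while Grm2 held 4.27% ± 1.23 and Grm4 1.65% ± 0.515. Grm6, the receptor of retinal ON bipolar cells, lay below them at 1.32 ± 0.254.

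**Figure D1:**
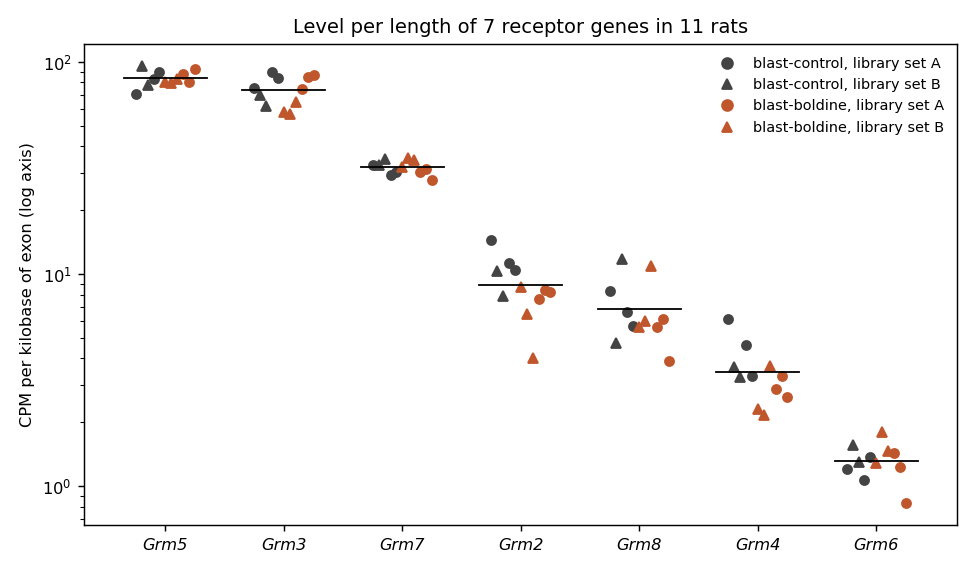
Level of the 6 receptors and Grm6 in CPM per kilobase of counted exon on a log axis, 1 symbol per rat for the 11 rats other than rat 6, with the black line at the mean over rats. Grm5 (mean 83.7) and Grm3 (73.3) lie far above Grm2 (8.92), Grm8 (6.84) and Grm4 (3.45), and for Grm3 the circles (set A) lie above the triangles (set B).

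Within group II, Grm2 was lower with boldine and Grm3 was not clearly different. Grm2 measured 66.6, 47.5, 36.0, 51.8 and 47.6 CPM in blast-control rats 1, 4, 5, 7 and 9, and 15.8 CPM from its 1 count in rat 6 (exact 95% Poisson interval 0.401 to 88.3 CPM, for counting error only). In blast-boldine rats 12, 17, 19, 20, 32 and 35 it measured 40.0, 29.8, 18.5, 35.1, 38.6 and 37.8 CPM. All 6 boldine rats lay below the median of the 5 deeply sequenced controls and 3 lay below the lowest of them (36.0 CPM, rat 5), so the groups overlapped over a narrow band. The means were 49.9 ± 11 CPM (SD, n = 5, without rat 6) and 33.3 ± 8.11 CPM (n = 6), and with rat 6 the control mean was 44.2 ± 17 (n = 6). The fitted log2 fold change, boldine over control, was -0.54 with a standard error (SE) of 0.22, a ratio of 0.687, and -0.59 (SE 0.21) without rat 6. Within set A all 3 boldine rats lay below all 3 controls (difference of mean log2 CPM -0.56), and within set B 2 of 3 lay below both deeply sequenced controls (-0.56). Leaving out rat 1, the highest control, gave -0.40, and leaving out rat 19, the lowest boldine rat, gave -0.41.

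Grm3, the receptor shared by astrocytes and neurons, had 256, 236, 210, 303 and 284 CPM in blast-control rats 1, 4, 5, 7 and 9, and 143 CPM from 9 counts in rat 6 (interval 65.2 to 271 CPM). In blast-boldine rats 12, 17, 19, 20, 32 and 35 it had 196, 192, 219, 253, 287 and 293 CPM. High and low rats of both groups interleaved, and the log2 fold change was -0.03 (SE 0.17), or -0.11 (SE 0.14) without rat 6. The level of Grm2 per length was also expressed as a percentage of Grm3 in the same rat, a measure that does not depend on library scaling, with rat 6 left out. It was 14.4% ± 2.90 in 5 controls, from 12.4% to 19.2%, and 10.4% ± 2.87 in 6 boldine rats, from 6.23% to 15.1%. In 5 of the 6 boldine rats the percentage lay under the lowest control, and rat 12, at 15.1%, lay within the control range.

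Within group III, Grm4 differed by about as much as Grm2, whereas Grm7 and Grm8 did not separate the groups. Grm4 had 26.4, 15.7, 14.0, 20.01 and 14.2 CPM in blast-control rats 1, 4, 5, 7 and 9, and no count in rat 6. It had 9.94, 9.32, 15.9, 12.4, 14.2 and 11.3 CPM in blast-boldine rats 12, 17, 19, 20, 32 and 35. In 4 of 6 boldine rats Grm4 lay below the lowest of the 5 controls, rat 19 stood above 3 of the 5 controls, and rat 1 stood highest by a wide gap. The means were 18.1 ± 5.26 CPM (SD, n = 5, without rat 6) and 12.2 ± 2.51 CPM (n = 6), and with rat 6 the control mean was 15.1 ± 8.75 (n = 6). The log2 fold change was -0.54 (SE 0.23), a ratio of 0.686, and -0.58 (SE 0.20) without rat 6. The difference of mean log2 CPM was -0.63 within set A and -0.38 within set B. Without rat 1 the log2 fold change was -0.36, a drop by more than 1.5 times, and without rat 19 it was -0.63.

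Grm8, a presynaptic autoreceptor with a restricted distribution in the forebrain, had 23.3, 13.2, 32.8, 18.5 and 15.9 CPM in blast-control rats 1, 4, 5, 7 and 9. It had 15.8, 16.8, 30.3, 15.7, 17.1 and 10.8 CPM in blast-boldine rats 12, 17, 19, 20, 32 and 35. The ranges coincided, with 1 high rat in each group (rats 5 and 19, both of set B) and every other rat at or below 23.3 CPM. The log2 fold change was -0.19 (SE 0.29), and -0.23 (SE 0.28) without rat 6. It depended on single rats: without rat 5 it was 0.03, without rat 19 -0.41, without rat 35 -0.08 and without rat 4 -0.31. Grm7, the most abundant group III receptor and one of low affinity for glutamate, was steady by comparison, from 100 to 119 CPM in the 5 controls and from 94.4 to 121 CPM in the 6 boldine rats, with 143 CPM from 9 counts in rat 6. Its log2 fold change was -0.04 (SE 0.11), and -0.01 (SE 0.09) without rat 6. Across all 11 rats the coefficient of variation was 7.70% for Grm7 and 36.1% for Grm8.

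Group I was represented by Grm5, whose level varied little. It lay between 276 and 375 CPM in the 5 controls and between 312 and 363 CPM in the 6 boldine rats, and 24 counts in rat 6 gave 380 CPM (interval 244 to 566 CPM). The boldine range fell inside the control range, and the log2 fold change was -0.01 (SE 0.12), or 0.01 (SE 0.10) without rat 6.

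**Figure D2:**
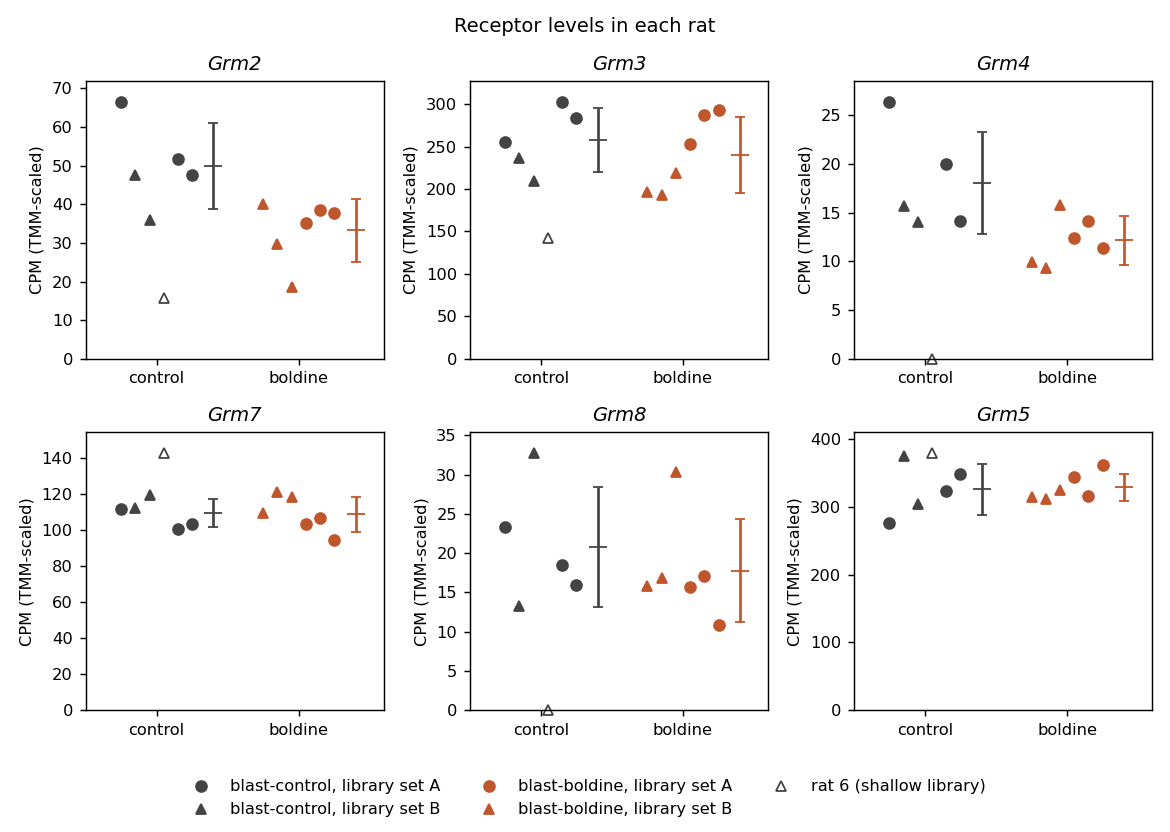
CPM (scaled by TMM) of the 6 receptors in each rat, blast-control in grey and blast-boldine in orange, circles for library set A, triangles for set B and the open triangle for the shallow library of rat 6. The bars are mean ± SD over 5 controls (without rat 6) and 6 boldine rats. Boldine rats sit low for Grm2 (33.3 against 49.9 CPM) and Grm4 (12.2 against 18.1 CPM) and overlap the controls elsewhere.

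Over all genes, the test of treatment by edgeR on 12 libraries called no gene at an adjusted p under 0.05 (0% of 12325 genes), and 132 genes, 1.07%, had an unadjusted p under 0.05. Under DESeq2 85 genes did, and none passed after adjustment. Of the 6 receptors 2, Grm2 and Grm4, were among the 1.07%, and because the receptors were chosen with this contrast known, nothing is read from that count. The same 2 had an unadjusted p under 0.05 without rat 6 (1.4% of 12529 genes did), with library set as a covariate (3.85%) and with both changes (5.35%). When each of the 12 rats was left out in turn, Grm2 was no longer under 0.05 in 4 of 12 fits (without rat 1, 7, 17 or 19) and Grm4 in 6 of 12 (without rat 1, 7, 12, 17, 20 or 35). Neither had an adjusted p under 0.05 in any of the 4 fits named before. All these fits share the same rats and the same choice of receptors, so nothing is read from these counts either. With both changes the log2 fold changes were -0.55 (SE 0.16) for Grm2, -0.55 (SE 0.18) for Grm4, -0.30 (SE 0.24) for Grm8, -0.07 (SE 0.07) for Grm3, -0.03 (SE 0.06) for Grm7 and 0.01 (SE 0.08) for Grm5. The treatment difference was not shown to depend on library set: the interaction had an adjusted p of at least 0.89 in edgeR for each receptor, with or without rat 6, and the smallest unadjusted p by that edgeR test on 12 libraries was 0.236, for Grm5.

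**Figure D3:**
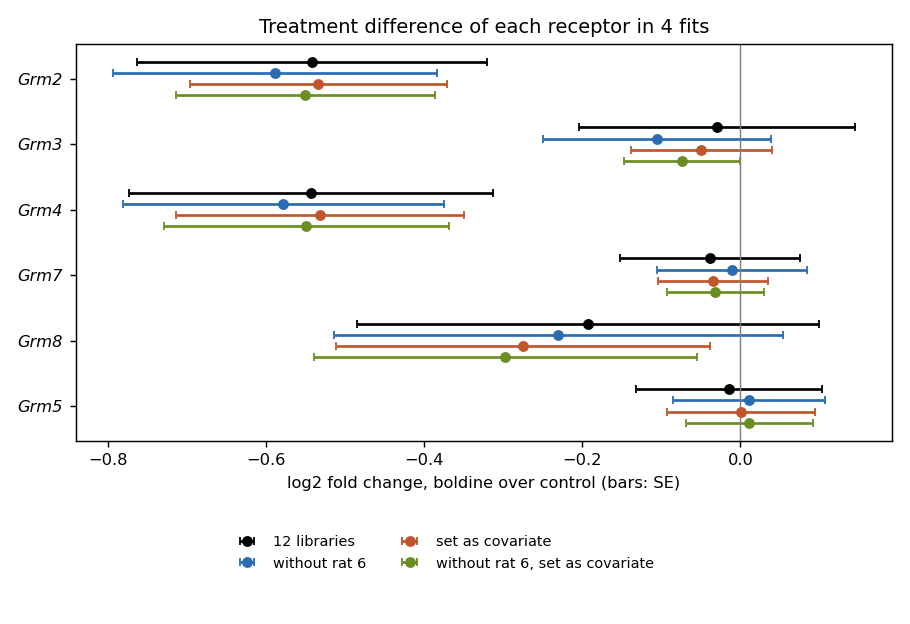
Log2 fold change of each receptor, boldine over control, on the horizontal axis, with the SE as bars, from 4 edgeR fits. Grm2 and Grm4 lie between -0.53 and -0.59 in these 4 fits, Grm8 lies between with wide bars, and Grm3, Grm5 and Grm7 lie near 0.

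The rule did not use the difference between the library sets. This difference was large across the transcriptome: 66.1% of genes differed between sets at an adjusted p under 0.05 in edgeR with treatment in the model, and 68.2% did without rat 6. Since the sets were picked by the main axis of variation of the same libraries, these p-values can be too small, and they are given to describe the libraries. Grm3 was lower in set B, at 192 to 236 CPM against 253 to 303 CPM in set A with no overlap (rat 6 left out), and its log2 difference, B minus A, was -0.42 (SE 0.09, adjusted p = 0.00075). Grm7 had a log2 difference of 0.18 (SE 0.07, adjusted p = 0.036). That of Grm7 was no longer under 0.05 in 10 of 14 alternatives, among them scaling by RLE (0.05, adjusted p = 0.50), which shifts the median of all genes from -0.02 to -0.14. Grm2 had a log2 difference of -0.38 (adjusted p = 0.0526), Grm4 of -0.28 (0.20), Grm8 of 0.39 (0.165) and Grm5 of 0.00 (0.985). Grm2 was under 0.05 in 4 of 14 alternatives, among them RLE (-0.50, adjusted p = 0.015) and the fit without rat 12 (-0.53, adjusted p = 0.0073). Grm4 was so only without rat 19 (-0.45, adjusted p = 0.035) and Grm8 only without rat 4 (0.58, adjusted p = 0.020). On 12 libraries 2 of the 6 receptors were called, beside 66.1% of all genes. Summed astrocyte markers, in which Grm3 has a known source, had a mean of 3427 ± 487 CPM in set B (n = 5) and 4415 ± 296 CPM in set A (n = 6), with overlapping ranges. Other lists also differed between the sets. Microglial markers summed to 119 to 189 CPM in set B and 264 to 290 CPM in set A, and oligodendrocyte markers to a mean of 3468 and 5694 CPM. Endothelial markers went the other way, at 221 to 297 CPM in set B and 101 to 150 CPM in set A, as did thalamic markers, at 190 to 216 and 95.4 to 110 CPM. Their part in the Grm3 difference was not tested.

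Genes through which the receptors signal were compared by role, from a list of 58 genes of which 54 were in the counts and 53 passed the filter. In edgeR on 12 libraries none of the 53 had an adjusted or unadjusted p under 0.05, beside 1.07% of all genes, and their median log2 fold change was -0.04 beside 0.00 over all genes, with 37 negative and 16 positive where 48.7% of all genes were negative. With rat 6 left out and library set as a covariate, 5 of the 53 had an unadjusted p under 0.05, all 5 lower with boldine, beside 5.35% of all genes in either direction and 3.54% lower. The median was then -0.06 beside -0.01 over all genes, and the smallest adjusted p of the list in edgeR was 0.898, so no gene of the list passed the test in either direction.

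The G proteins, which carry the signal from the receptor, showed no such gene. Gnao1, the Go subunit with the highest count, had a log2 fold change of -0.14 (SE 0.09) in the fit with both changes, and the 7 G protein genes lay between -0.14 and 0.14. Of 6 adenylate cyclases, the enzymes that Gi inhibits, Adcy1 was among the 5 with -0.22 (SE 0.09), against -0.09 (SE 0.19) on 12 libraries with treatment alone, and it had means of 654 ± 160 CPM in 5 controls and 576 ± 77.4 CPM in 6 boldine rats. Of the 10 scaffold genes, Shank3 had -0.29 (SE 0.09) and Shank1 had -0.36 (SE 0.14). On 12 libraries with treatment alone these were -0.16 (SE 0.41) and -0.09 (SE 0.55). Both Shank genes differed far more between the sets than between treatments, with Shank1 at 256 to 402 CPM in the 6 rats of set A and at 1004 to 1972 CPM in the 5 deeply sequenced rats of set B. Ncdn, the scaffold gene with the highest count, had -0.19 (SE 0.18), and Homer1, which links group I receptors to the IP3 receptor, had -0.06 (SE 0.10).

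Among 4 genes of receptor-dependent long-term depression, Arc and Ptpn5 completed the 5. Arc, an immediate early gene whose product promotes AMPA receptor endocytosis, had 96.4, 161, 110, 132 and 133 CPM in blast-control rats 1, 4, 5, 7 and 9. It had 101, 94.9, 101, 123, 107 and 91.4 CPM in blast-boldine rats 12, 17, 19, 20, 32 and 35. Only 2 boldine rats fell below the lowest control, and the log2 fold change was -0.30 (SE 0.12) with both changes and -0.21 (SE 0.20) on 12 libraries with treatment alone. Ptpn5, which encodes the phosphatase STEP, had means of 133 ± 8.09 CPM (n = 5) and 118 ± 8.74 CPM (n = 6) and a log2 fold change of -0.16 (SE 0.07), or -0.13 (SE 0.11) on 12 libraries with treatment alone. Fmr1, the translational repressor with the highest count of the 4, had 0.06 (SE 0.12).

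Phospholipase C and calcium genes (9 of 9 tested) had a median of -0.02, and Itpr1, the IP3 receptor and the most counted of them, had -0.02 (SE 0.09). Regulators of desensitization (8 of 8) had a median of -0.07, with Grk2, the receptor kinase with the highest count, at -0.13 (SE 0.06). Rgs4, of the same role, had the lowest value of all 53 genes, -0.53 (SE 0.26), with an unadjusted p not under 0.05 in edgeR. On 12 libraries with treatment alone Rgs4 had -0.46 (SE 0.36). The 6 channels that the receptors modulate had values between -0.15 and -0.01, with Kcnj6, a GIRK channel subunit, at -0.04 (SE 0.07). Elfn1, the postsynaptic protein that binds mGluR7 and other group III receptors across the synapse, had -0.23 (SE 0.14). Of the genes that supply or remove extracellular agonists of group II receptors, Slc7a11, the cystine-glutamate exchanger, had 0.14 (SE 0.07). Folh1, which degrades the mGluR3 agonist NAAG, had 0.03 (SE 0.08).

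**Figure D4:**
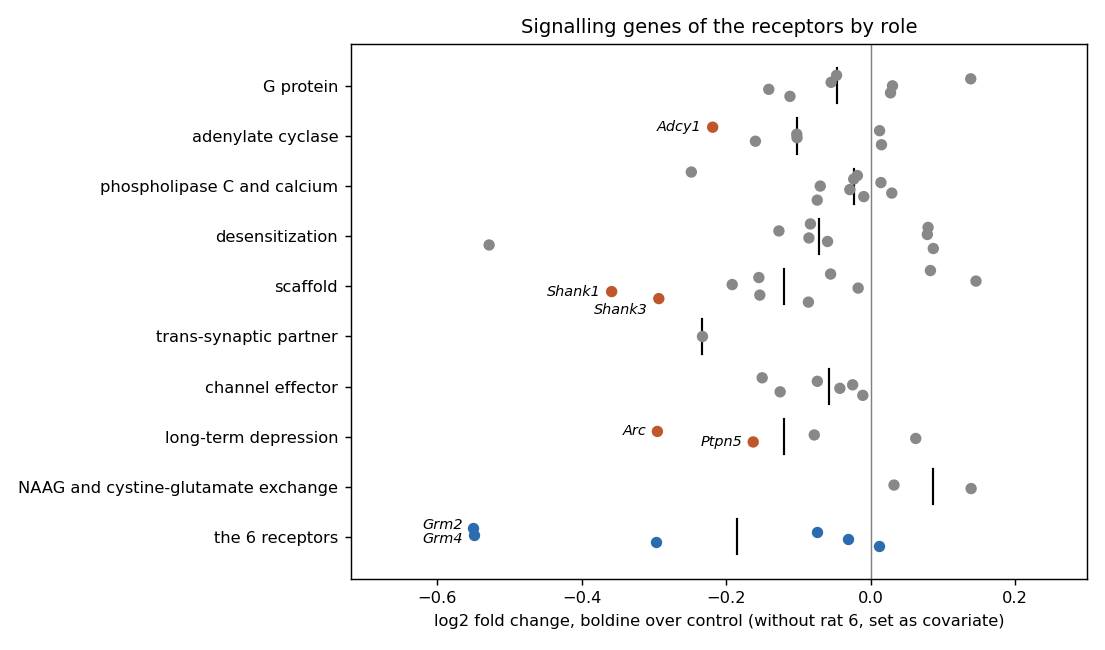
Log2 fold change, boldine over control, of the 53 signalling genes by role and of the 6 receptors, from the edgeR fit without rat 6 and with library set as a covariate. Each point is a gene, orange points have an unadjusted p under 0.05 (Adcy1, Shank1, Shank3, Arc and Ptpn5), receptors are blue, and black lines are medians. The 5 orange points lie between -0.36 and -0.16, to the right of Grm2 and Grm4 at -0.55. The lowest signalling gene, Rgs4 of the desensitization role at -0.53, was not under that p.

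Marker lists for regions and cell types, chosen with earlier results of these data known, are given beside the receptors. The layer 6b list differed most in proportion, and the summed level of each list overlapped between the groups. In bulk tissue, fewer cells of a type and less RNA per cell cannot be told apart. All 3 layer 6b markers measured (Cplx3, Nxph4 and Ccn2, of 4 listed) had an unadjusted p under 0.05 in edgeR on 12 libraries, beside 1.07% of all genes, and none had an adjusted p under 0.05. Because the list was chosen with earlier results of these data known, nothing is read from that count. Cplx3 had a log2 fold change of -1.06 (SE 0.36), Nxph4 of -1.09 (SE 0.35) and Ccn2 of -0.65 (SE 0.18). Nxph4 lay near the floor of 3 counts (up to 0.307 CPM in these rats), with means of 0.932 CPM in 5 controls and 0.447 CPM in 6 boldine rats. Their summed level was 11.3 to 31.0 CPM in 5 controls and 9.92 to 12.3 CPM in 6 boldine rats. Of 5 markers of subiculum and entorhinal cortex, Slc17a6, the vesicular glutamate transporter VGLUT2, had -0.64 (SE 0.27) and Nr4a2 -0.47 (SE 0.24), while Nts (-0.10, SE 0.35) and Lxn (-0.08, SE 0.20) lay near 0 and Fn1 was positive (0.32, SE 0.53). The sum of the list was 166 to 288 CPM in controls and 147 to 274 CPM in boldine rats. Of 6 neocortical markers, Tbr1 had -0.36 (SE 0.19) and Cux2 -0.29 (SE 0.31), Rorb (-0.10, SE 0.17) and Lhx2 (-0.05, SE 0.20) lay near 0, and Rasgrf2 (0.19, SE 0.19) and Fezf2 (0.07, SE 0.20) were positive. The list summed to 403 to 527 CPM in controls and 372 to 506 CPM in boldine rats. Dentate granule markers, by contrast, summed to 342 to 482 CPM and 349 to 459 CPM, with 1 of 4 tested markers lower. The tested markers of dentate granule cells, CA1, CA3, neocortex, thalamus, cerebellum, choroid plexus, interneurons, astrocytes, oligodendrocytes, microglia and endothelium had no gene with an unadjusted p under 0.05 in edgeR on 12 libraries. With rat 6 left out and library set as a covariate, Wfs1 of CA1 (-0.28, SE 0.09), Tbr1 (-0.45, SE 0.14), Nr4a2 of the subicular list (-0.42, SE 0.17) and Tmem119 of microglia (-0.47, SE 0.14) also did, as log2 fold changes. Over the 11 rats, after the mean of each library set was subtracted, Grm2 had r of 0.77 with Ccn2, 0.25 with Cplx3, 0.41 with Tbr1 and -0.04 with Slc17a6, and Grm4 had r of 0.76, 0.62, 0.96 and 0.58 with the same genes. With the treatment means removed as well, r with these genes in the same order was 0.49, -0.23, -0.15 and -0.78 for Grm2. For Grm4 it was 0.43, 0.38, 0.93 and 0.34. Of the dentate granule markers, Grm2 had r of 0.63 with Prox1, 0.26 with C1ql2, 0.40 with C1ql3 and -0.12 with Calb1. With the treatment means removed these were 0.71, 0.60, 0.51 and 0.20. The part of these markers in the Grm2 and Grm4 differences was not tested.

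The genes whose pattern over rats was most like that of each receptor were sought among 11963 genes, by Pearson's r of log2 CPM over the 11 rats other than rat 6 after the mean of each library set was subtracted. These are descriptions across 11 libraries, in which the genes of a rat share its library, depth and tissue, chosen as the highest of many, and carry no p. For Grm4 the closest gene was Tbr1 (r = 0.96, Spearman's rho = 0.95), a transcription factor of glutamatergic cortical neurons, followed by Lzts1 (r = 0.96) and the potassium channel subunit Kcnf1 (r = 0.93). With the treatment mean removed as well, r of Grm4 with Tbr1 was 0.93, and without the 2 rats farthest from the median it was 0.95. Other neocortical markers ranged widely in r with Grm4: Cux2 0.76, Rorb 0.61, Lhx2 0.21, Fezf2 0.12 and Rasgrf2 -0.58. Cbln1, of the cerebellar list, had r of 0.79 with Grm4, and 0.98 with the treatment mean removed as well. For Grm2 the closest were Stim1 (r = 0.96, rho = 0.93), the calcium sensor of the endoplasmic reticulum, Mocos (0.86) and Klhdc8b (0.85). Grm2 and Grm4, which differed between treatments by the same amount, had r of only 0.39 with each other, and -0.19 once the treatment means were removed.

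Grm8 was closest to the cadherin Cdh7 (r = 0.95) and Lgi2 (0.94), and rats 5 and 19 were high for it. Among markers, picked after their values were seen, its r was 0.80 with Slc17a6 and 0.80 with the layer 6b marker Cplx3 but 0.36 with Ccn2, also of layer 6b, and 0.02 with the subicular marker Fn1. It was -0.85 with the CA3 marker Cpne4. Grm3 was closest to Il3ra (0.94), Fry (0.91) and Fbxo46 (0.91). Grm5 was closest to Atp6ap2 (0.98), Dstn (0.97) and Taldo1 (0.97), and Grm7 to Aida (0.95), Rab35 (0.93) and Gtf2i (0.91). Grm5 and Grm7 ran in opposite directions over rats, with r of -0.72.

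**Figure D5:**
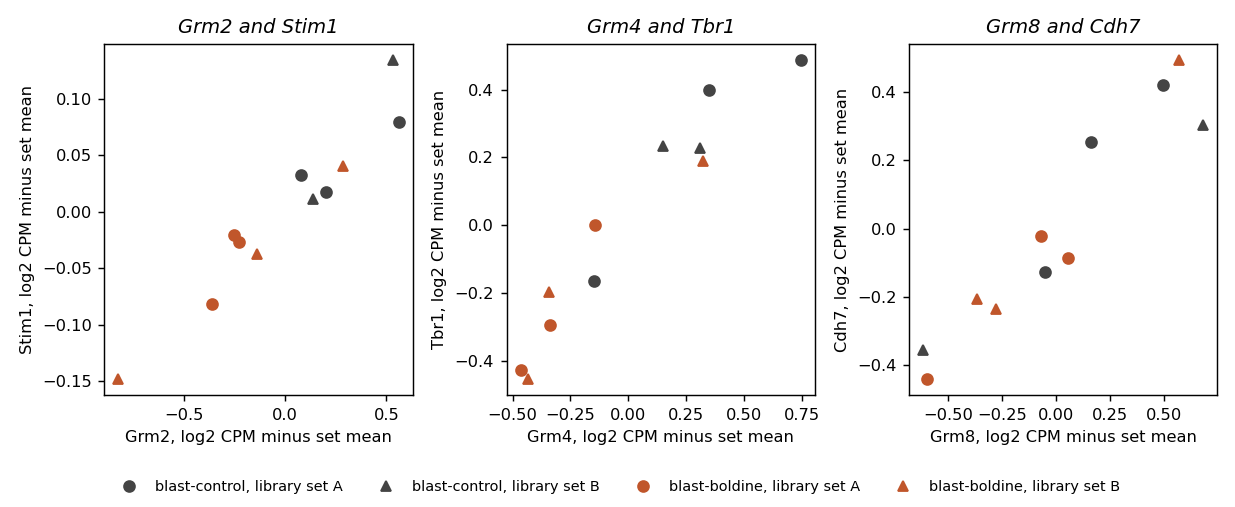
Log2 CPM minus the mean of the library set for Grm2 and Stim1, Grm4 and Tbr1, and Grm8 and Cdh7, 1 symbol per rat for 11 rats, blast-control in grey and blast-boldine in orange. Points follow a rising line in each panel (r = 0.96, 0.96 and 0.95), and orange and grey symbols separate along it for Grm2 more than for Grm8.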

How the data were processed

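Counts per gene were those the authors deposited, integers without normalization, in 12 libraries. Per the methods of the study, the authors depleted ribosomal RNA before stranded library preparation, used HTStream for trimming and for removal of PCR duplicates, aligned with STAR 2.7.11b (mRatBN7.2), and counted reads on RefSeq exons by strand and gene name with featureCounts of Subread 2.0.1. Conditions came from the sample labels, ages, doses and times from the methods.

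The test was the quasi-likelihood F test in edgeR 4.0.16 under R 4.3.3 (TMM, filterByExpr with its minimum of 10 counts, treatment alone, two-sided, Benjamini-Hochberg adjustment at 0.05). A step on simulated counts with 200 changed genes recovered 99% of them for treatment. The share the test would recover in the sequenced libraries, for differences as small as those of the receptors, was not tested. CPM are scaled by TMM, log2 CPM adds a prior count of 2, and levels between genes were compared per kilobase. The SE is the log2 fold change divided by the square root of F. Alternatives were DESeq2 1.42.0, RLE scaling, no filter, library set as a covariate, and leaving out rats. Intervals and the floor of 3 counts cover counting error only. Library numbers are unique to each rat, and p-values measure the spread between rats.

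The receptors, signalling genes and marker lists were chosen with earlier results of these data known. Genes were named by rule: the 6 receptors, signalling genes with an unadjusted p under 0.05 in edgeR on 12 libraries or without rat 6 with the set covariate, the most counted gene of each role, markers beside a result, and the 3 genes most alike to each receptor (mean of at least 20 counts). Homer1, Rgs4, Folh1 and the r values with markers were added after their values were seen. Some genes that these rules or lists include are not reported here.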

Additional observations from a re-analysis of the deposited data

Results flagged for a closer look

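Among 12 combinations of receptor and treatment group, 1 library stood apart: Grm8 in blast-boldine rat 19 measured 30.3 CPM, where the other 5 boldine rats lay between 10.8 and 17.1 CPM, and its gap to the next rat was 0.677 of the range of the group, above Dixon's 95% critical value. Chance flags about 1 in 20 such groups. No receptor showed a treatment difference that differed between library sets by the interaction test in edgeR.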

How the results depend on the processing

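The log2 fold change of each receptor moved by less than 1 SD between rats in all 17 alternatives. It was negative in 17 of 17 for Grm2 and for Grm4, in 16 for Grm8, 15 for Grm7, 12 for Grm3 and 10 for Grm5. The alternatives share the same rats and the same choice of receptors, so nothing is read from these counts of signs. Leaving out 1 rat at a time gave ranges of -0.62 to -0.40 for Grm2, -0.63 to -0.36 for Grm4, -0.41 to 0.03 for Grm8, -0.11 to 0.05 for Grm3, -0.07 to 0.01 for Grm7 and -0.04 to 0.03 for Grm5. No alternative gave a gene with an adjusted p under 0.05 for treatment. The count of genes with an unadjusted p under 0.05 was 132, and became 474 with library set as a covariate, 670 with rat 6 left out as well, 85 in DESeq2, 254 without the filter, and 85 to 214 when 1 rat was left out. The lowest, 85, came without rat 12 or rat 17, 87 came without rat 1, and the highest came without rat 5. The cause was not tested. Signalling genes under that p numbered 0, and became 1 with the set covariate, 5 with rat 6 left out as well, and 0 to 1 when 1 rat was left out. Genes that differed between library sets numbered 8147, and 7618 to 8592 when 1 rat was left out. The set difference of Grm3 held in all 14 alternatives. Depth limits rat 6, and no paired analysis was possible because the groups share no replicate number.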

Other observations

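Grm6, of the same family, gave a log2 fold change for boldine of 0.05 in edgeR on 12 libraries, and its adjusted p was not under 0.05. Between rats, Grm7 and Grm8 varied together (r = 0.70 over 11 rats after the mean of each library set was subtracted), and both ran against Grm5 (r = -0.72 and -0.68), as a description with no test.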
